A study of Mus musculus with 12 samples.

Results

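Mediator is a large protein complex that links DNA-bound transcription factors to RNA polymerase II. Its 33 mouse genes were examined here in newborn calvaria, the flat bones of the skull vault. The 33 genes were the named subunits of 4 modules and of the backbone that joins them, namely 11 head genes, 9 middle genes, the backbone gene Med14, 5 tail genes and 7 genes of the kinase module. They were matched by gene symbol among the 23715 genes of the deposited tables, and all 33 had a value, spread over 46 RefSeq transcripts. RNA sequencing covered 12 individual C57BL/6 newborn mice in 4 groups of 3. The group P-KO carried a deletion of Med23 in mesenchymal stem cells (Med23MSC-/-), made by Prx1-Cre in mice with floxed Med23 alleles. Its comparison group P-Ctrl (control) is labelled WT, and the study's figure legends describe controls of this cross as Med23 fl/fl. The group R-Het (Runx2+/-) carried 1 inactive allele of Runx2, the main transcription factor of osteoblasts, and was compared with R-WT (WT), which is labelled WT. By the study's methods, the RNA came from the parietal bone on postnatal day 2, and the controls of the Med23MSC-/- mice were littermates.

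In the Mediator complex, the head and middle modules contact RNA polymerase II and MED14 runs through the complex as its backbone. The tail subunits, MED23 among them, are docking points for transcription factors. The kinase module, built from CDK8 or CDK19 with cyclin C, MED12 and MED13 or their paralogs, binds the complex reversibly and can block its contact with the polymerase. The study asked whether MED23 and RUNX2 act together in bone formation, and the comparison described here shows what the RNA of all Mediator subunits did when either gene was altered. Prx1-Cre acts in limb and craniofacial mesenchyme, so blood cells and other cells of the calvaria kept Med23. In such a mixed tissue, fewer cells of a type and less RNA per cell cannot be told apart.

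Levels are given as FPKM, which counts sequenced fragments relative to transcript length and library size, added up over the transcripts of a gene. From the value that 1 fragment is worth, the depth was roughly 8100000 to 9300000 fragments in Med23MSC-/- mice, 9300000 to 11200000 in controls, 9300000 to 11700000 in WT and 7800000 to 10200000 in Runx2+/- mice. The female-specific RNA Xist was above 1 FPKM in control mice 2 and 3 and in WT mouse 1, and in none of the 6 mutant mice, so that sex was uneven between groups. The 13059 genes that reached 1 FPKM in 3 or more mice, 32 of them Mediator genes, were tested with limma on log2(FPKM + 1), and p-values were adjusted by Benjamini-Hochberg over all 13059 genes. All fold changes are log2 differences on that scale, which understates changes of low genes. With 3 mice in a group, the p-values rest on the spread between these mice, which limma draws towards that of genes of similar level.

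The deletion removes exons 5 to 7 of Med23, of 112, 99 and 102 bases. They are shown because they are the sequence that differs between control and recombined alleles (GRCm38, coding exons on the + strand).
Med23 exon 5, chr10:24874570-24874681, + strand: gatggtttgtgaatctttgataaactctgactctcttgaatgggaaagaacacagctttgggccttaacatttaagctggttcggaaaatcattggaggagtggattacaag
Med23 exon 6, chr10:24875596-24875694, + strand: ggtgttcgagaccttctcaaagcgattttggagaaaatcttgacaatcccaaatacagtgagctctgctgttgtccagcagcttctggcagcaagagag
Med23 exon 7, chr10:24876940-24877041, + strand: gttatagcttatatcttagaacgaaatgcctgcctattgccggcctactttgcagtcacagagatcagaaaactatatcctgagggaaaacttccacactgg
Together they make 313 coding bases, 1 base beyond a multiple of 3, and 6.52% or 6.14% of the bases of the 2 Med23 transcripts. Summed over whole transcripts, Med23 FPKM therefore rests almost entirely on reads from outside the deleted exons. It is a weak check of the deletion, unless the deletion also lowers the amount of the remaining RNA, which was not tested.

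The levels of the Mediator genes spanned a wide range in these bones. Med21, a middle subunit that pairs with MED7, was the highest, with 117 to 179 FPKM over the 12 mice and a mean of 152 FPKM. Med10, another middle subunit, followed at 65.5 to 99.3 FPKM, and the head genes Med6 (33.7 to 54.7 FPKM) and Med30 (34.9 to 53.8 FPKM) came next. The ranges of Med21, Med10 and Med6 did not overlap, whereas those of Med6 and Med30 did. At the low end, Med12l, a paralog of Med12, was at 0.272 to 0.636 FPKM and was left out of the tests. The head gene Med18 was at 0.863 to 2.79 FPKM and rested on roughly 11.2 to 47.3 fragments per mouse. Med23 was rank 29 of 33 with a mean of 5.33 FPKM, and rested on roughly 201 to 331 fragments per mouse. The median spread within a group was between 4.25% of the mean for the head scaffold gene Med17 and 25.5% for Med18.

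**Figure D1:**
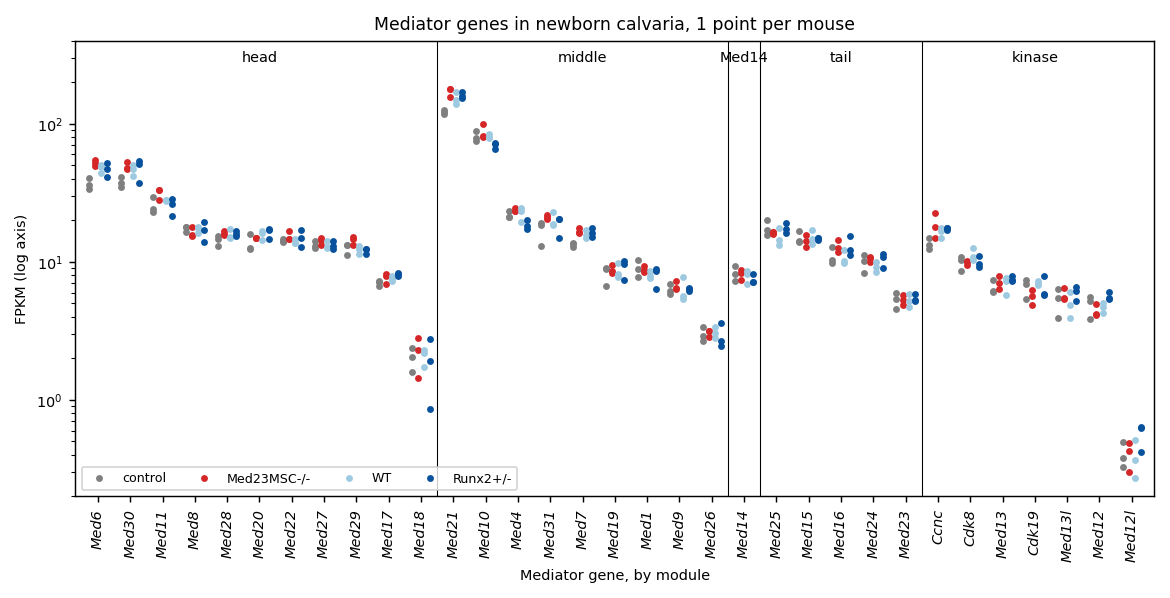
FPKM (log axis) of the 33 Mediator genes, ordered by module and mean level, with 1 point per mouse and a colour per group. Levels run from 0.272 FPKM for Med12l to 179 FPKM for Med21, and for Med21, Med6 and Med7 the 3 control mice lie below the other 9 mice.

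The tail gene Med23 itself stood at about the same summed level in all 4 groups, and no difference passed the test. It was at 5.99, 5.42 and 4.54 FPKM in control mice 1 to 3 and at 4.89, 5.74 and 5.28 FPKM in Med23MSC-/- mice. WT mice had 5.18, 5.85 and 4.72 FPKM, and Runx2+/- mice had 5.89, 5.23 and 5.28 FPKM. The 4 groups overlapped, with log2 fold changes of 0.00 (SE 0.12, limma adjusted p = 0.997) in the Med23MSC-/- set and 0.05 (SE 0.10, adjusted p = 0.869) in the Runx2+/- set. The summed level neither bore out nor contradicted the label of the Med23MSC-/- group. Reads from outside the deleted exons and from cells that kept Med23 both enter this sum, and their parts were not tested. Runx2 likewise was at 34.3, 30.4 and 35.7 FPKM in Runx2+/- mice against 29.8, 37.7 and 27.3 FPKM in WT mice (log2 fold change 0.09, SE 0.13, adjusted p = 0.796), so its summed level did not separate these groups either. In Med23MSC-/- mice, Runx2 was at 23.7, 27.7 and 28.7 FPKM, against 38, 38 and 30.5 FPKM in controls. These groups did not overlap, but the difference of -0.40 (SE 0.12, limma adjusted p = 0.127) did not pass the test.

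MED24 and MED16 sit next to MED23 in the tail. Med24 was at 10.1, 11.2 and 8.35 FPKM in controls and at 9.97, 10.9 and 10.7 FPKM in Med23MSC-/- mice. In WT mice it was at 9.20, 9.99 and 8.51 FPKM, and in Runx2+/- mice at 11.5, 10.9 and 8.96 FPKM. Both pairs of groups overlapped, and the log2 fold changes of 0.09 (SE 0.12, adjusted p = 0.705) and 0.15 (SE 0.11, adjusted p = 0.566) did not pass the test. Med16 was at 9.74, 12.9 and 10.4 FPKM in controls and at 12.6, 11.8 and 14.5 FPKM in Med23MSC-/- mice. It was at 10.1, 12.1 and 9.88 FPKM in WT mice and at 15.5, 12.2 and 11.2 FPKM in Runx2+/- mice. The mutant mean was the higher in both sets, by 0.22 (SE 0.13, adjusted p = 0.358) and 0.25 (SE 0.13, adjusted p = 0.435) on the log2 scale, but control mouse 2 and WT mouse 2 lay within the mutant ranges. The Med16 value is a sum over 2 transcripts, of which the highest held 69.3% of the total. That transcript alone gave -0.02 in the Runx2+/- set (limma adjusted p = 0.981). The other tail genes, Med15, a partner of sterol-responsive factors, and Med25, had log2 fold changes of -0.06 and -0.10 in the Med23MSC-/- set and -0.02 and 0.21 in the Runx2+/- set, with no adjusted p under 0.35.

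**Figure D2:**
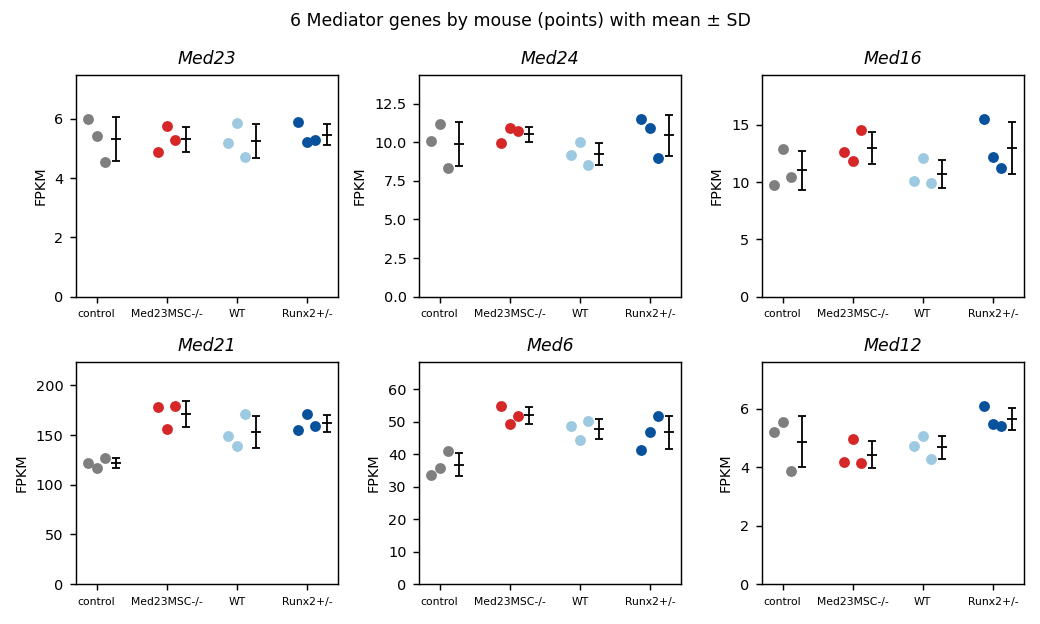
FPKM of the tail genes Med23, Med24 and Med16, the middle gene Med21, the head gene Med6 and the kinase module gene Med12, with 1 point per mouse and the mean ± SD of each group of 3. The groups overlap for the tail genes, while for Med21 and Med6 the controls lie between 117 and 127 FPKM and between 33.7 and 40.8 FPKM, below the Med23MSC-/- mice.

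In the Med23MSC-/- set, 24 of the 32 tested Mediator genes had a higher mean than in controls and 8 a lower mean, and only Med21 passed the threshold of an adjusted p of 0.05. Among all 13059 tested genes, 1.57% passed this threshold in either direction and 1.01% upwards. The share of Mediator genes with a positive fold change was 75% against 61.3% of all tested genes, and their median log2 fold change was 0.10 against 0.06. After the values of each mouse were rescaled to the same sum, 15 of the 32 Mediator genes were positive, with a median of 0.00, and so were 44.4% of all genes tested at that scale, so the balance of directions turned with the scale. In 8 of the 32, or 25%, the Med23MSC-/- mice all lay above all controls, against 19.6% of all tested genes, and in 0 they all lay below, against 7.68%. At an unadjusted p under 0.05, 6 Mediator genes (18.8%) were higher, where 15.7% of all genes were, and 0 were lower, where 5.63% were.

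Med21 encodes a small middle subunit whose dimer with MED7 forms a hinge of the complex. It was at 122, 117 and 127 FPKM in controls and at 178, 156 and 179 FPKM in Med23MSC-/- mice. All 3 mutants lay above all 3 controls, with means of 122 ± 4.83 and 171 ± 12.9 FPKM (SD, n = 3 each), and Med21 rose by 0.48 on the log2 scale (SE 0.09, limma adjusted p = 0.0479). In WT mice it was at 149, 139 and 171 FPKM and in Runx2+/- mice at 155, 171 and 159 FPKM, so the controls of the Med23MSC-/- set were the group that stood lowest. The call sat at the threshold: the fold change stayed between 0.32 and 0.54 in 19 alternative settings, and the adjusted p was under 0.05 in 3 of them and reached 0.185. It was lost when any of the 6 mice was left out (adjusted p between 0.0698 and 0.185) and without control mice 2 and 3 and WT mouse 1, the libraries with Xist (0.48, adjusted p = 0.138). The fit without the Xist libraries took the remaining mice of both sets together, and with all 12 mice it gave an adjusted p of 0.0169. Without 1 mouse, the calls over all genes also fell, from 132 higher and 73 lower to 22 and 13 or fewer.

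MED7, the partner of MED21, showed the same order of groups. Med7 was at 13.4, 13.7 and 12.8 FPKM in controls, 16.5, 16.3 and 17.6 FPKM in Med23MSC-/- mice, 15.6, 14.9 and 17.0 FPKM in WT mice and 17.7, 16.1 and 15.2 FPKM in Runx2+/- mice. The first 2 groups did not overlap, and the difference of 0.31 (SE 0.08) missed the threshold with an adjusted p of 0.0957. The value is a sum over 4 transcripts, of which the highest held 41.7% of the total. That transcript alone gave -0.13 (adjusted p = 0.768). Of the other middle genes, Med4 and Med31, a subunit that binds MED7, also had non-overlapping groups, with differences of 0.12 (SE 0.08, adjusted p = 0.413) and 0.33 (SE 0.14, adjusted p = 0.244). Med1, the subunit contacted by nuclear hormone receptors, had a difference of -0.02, and Med26, which brings in elongation factors, had 0.04. The 9 middle genes had a median of 0.10 and 8 positive values (88.9%, against 61.3% of all genes). After rescaling 4 were positive, against 44.4% of all genes.

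The head gene with the largest difference was Med6, a subunit that touches the polymerase. Med6 was at 33.7, 35.8 and 40.8 FPKM in controls and at 54.7, 49.4 and 51.8 FPKM in Med23MSC-/- mice. In WT mice it was at 48.6, 44.2 and 50.2 FPKM and in Runx2+/- mice at 41.4, 46.8 and 51.7 FPKM. Controls were again below the other 9 mice, and the difference of 0.49 (SE 0.09) had an adjusted p of 0.0554, which fell to 0.022 with all 12 mice in 1 fit and to 0.048 with a stricter filter on low values. Med30, a subunit found in animals and not in yeast, was at 34.9, 37.3 and 40.9 FPKM in controls and at 47.8, 46.8 and 52.7 FPKM in Med23MSC-/- mice, with 47.0, 41.9 and 50.0 FPKM in WT mice and 37.2, 50.9 and 53.8 FPKM in Runx2+/- mice. The groups of the Med23MSC-/- set did not overlap, and the difference was 0.37 (SE 0.09, adjusted p = 0.0882). Med11 had a difference of 0.30 (SE 0.12, adjusted p = 0.217), with control mouse 3 at 29.6 FPKM above Med23MSC-/- mouse 2 at 28.1 FPKM. Med28 was the remaining head gene without overlap, at 0.15 (SE 0.09, adjusted p = 0.371). Of the 11 head genes, 10 had a positive fold change (90.9%, against 61.3% of all genes), and Med8 was the exception at -0.08. After rescaling 7 were positive, against 44.4% of all genes. The median of the head genes before rescaling was 0.13.

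**Figure D3:**
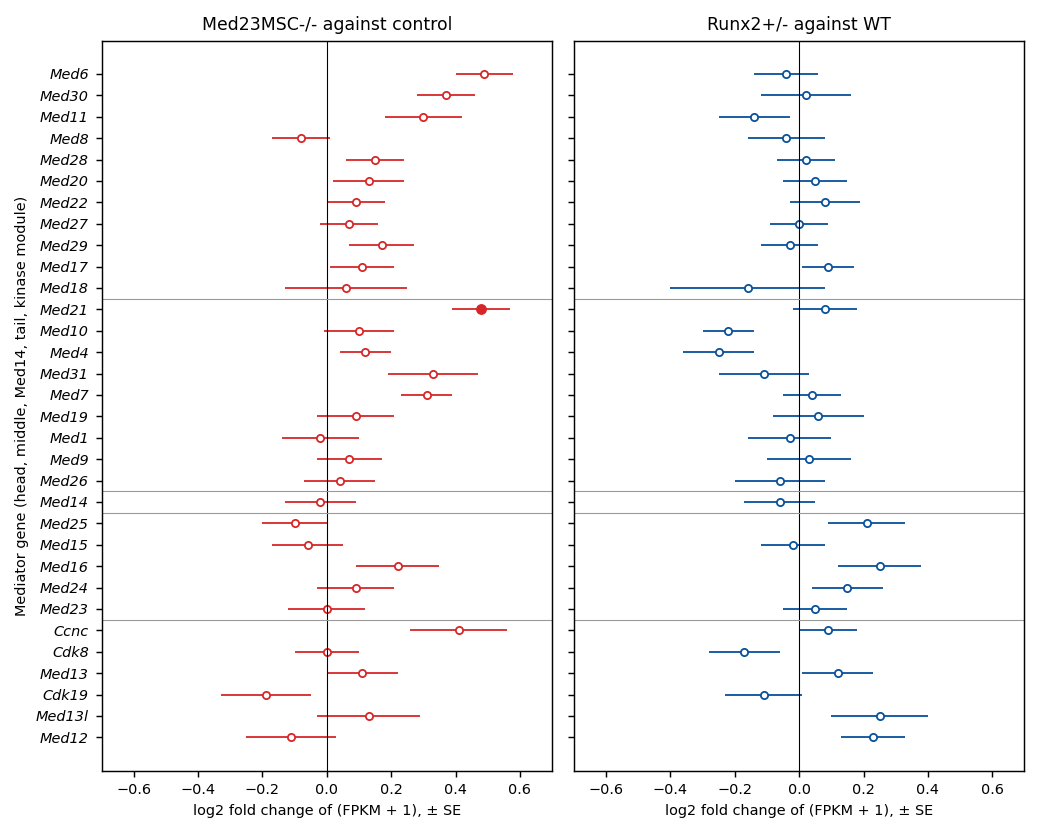
Log2 fold change of FPKM + 1, with its SE, of the 32 tested Mediator genes in the Med23MSC-/- set (red) and the Runx2+/- set (blue), in module order. The filled point marks Med21, the only member past the adjusted threshold (0.48), and the Runx2+/- values lie between -0.25 and 0.25.

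The upstream sequences of the 2 genes with the smallest p-values are shown so that they can be read beside these values (250 bases before the RefSeq start, GRCm38.p6, 5′ to 3′ on the gene's strand). Capitals mark the letters CCAAT, or ATTGG, which is CCAAT on the other strand.
Med21, chr6:146642329-146642578, + strand: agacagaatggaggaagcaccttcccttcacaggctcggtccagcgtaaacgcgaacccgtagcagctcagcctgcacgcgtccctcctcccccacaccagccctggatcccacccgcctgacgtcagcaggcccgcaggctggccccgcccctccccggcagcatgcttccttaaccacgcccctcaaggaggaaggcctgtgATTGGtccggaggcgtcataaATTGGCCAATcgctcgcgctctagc
Med6, chr12:81595009-81595258, - strand: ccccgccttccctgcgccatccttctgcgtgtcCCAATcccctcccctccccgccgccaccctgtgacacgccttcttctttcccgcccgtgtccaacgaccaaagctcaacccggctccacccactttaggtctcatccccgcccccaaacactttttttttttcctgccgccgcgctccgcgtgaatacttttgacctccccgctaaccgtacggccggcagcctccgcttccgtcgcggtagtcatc
The Med21 window held 3 such matches and the Med6 window 1. CCAAT or ATTGG was present in 37.5% of the 32 windows found for 28 Mediator genes and in 33.9% of all 32851 windows. The GC box, GGGCGG or CCGCCC, was in 62.5% of the Mediator windows and in 32.7% of all windows, and CCGGAAG or CTTCCGG, the core letters bound by ETS factors, in 18.8% and 6.91%. The letters bound by RUNX factors, TGTGGT or ACCACA, were in 2 Mediator windows, those of Med27 and Med31 (6.25%), and in 14.1% of all windows. Of the tail genes named above, Med23 had no window in the sequences used here, nor did Med30 among the head genes. The matches describe letters only.

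Of the kinase module, Ccnc, which encodes cyclin C, had the largest difference in the Med23MSC-/- set. Ccnc was at 13.2, 12.4 and 14.9 FPKM in controls and at 22.5, 17.9 and 15.0 FPKM in Med23MSC-/- mice, against 17.5, 14.9 and 16.7 FPKM in WT mice and 17.6, 16.9 and 17.7 FPKM in Runx2+/- mice. The first 2 groups were apart by little, since mutant mouse 3 lay next to control mouse 3, and the difference of 0.41 (SE 0.15) had an adjusted p of 0.181. The kinase gene Cdk8 had a difference of 0.00 and Cdk19 a difference of -0.19 (SE 0.14, adjusted p = 0.454). Med12, an X-linked gene whose product activates the kinase, was at 5.20, 5.56 and 3.88 FPKM in controls, 4.18, 4.96 and 4.14 FPKM in Med23MSC-/- mice, 4.73, 5.06 and 4.27 FPKM in WT mice and 6.09, 5.47 and 5.42 FPKM in Runx2+/- mice. The groups overlapped in the Med23MSC-/- set (-0.11, SE 0.14, adjusted p = 0.698) but not in the Runx2+/- set, where the difference was 0.23 (SE 0.10, adjusted p = 0.325). Med14, the other X-linked member, had -0.02 and -0.06 in the 2 sets, with overlapping groups.

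CDK8 and CDK19, MED12 and MED12L, and MED13 and MED13L exclude each other from a given kinase module, so the share of the paralog within each pair was compared by mouse. Cdk19 made up 39.8% ± 5.3 of Cdk8 and Cdk19 in controls and 36.2% ± 2.4 in Med23MSC-/- mice (SD, n = 3 each, two-sided exact permutation p = 0.3), and 38.7% ± 3.18 in WT and 39.6% ± 6.12 in Runx2+/- mice (exact permutation p = 1). Med13l made up 44.3% ± 4.57 and 44.7% ± 5 of its pair in the Med23MSC-/- set (exact permutation p = 1) and 41.6% ± 2.34 and 44.3% ± 2.61 in the Runx2+/- set (exact permutation p = 0.2). Med12l made up 7.6% ± 1.17 of its pair in controls, 8.51% ± 2.5 in Med23MSC-/-, 7.63% ± 2.77 in WT and 8.99% ± 1.66 in Runx2+/- mice (exact permutation p = 0.7 and 0.5). Over the 6 tests the adjusted p-values were 0.9 to 1. A test of 3 mice against 3 cannot go below 0.1, so these shares could not have passed 0.05 and were compared by size alone.

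**Figure D4:**
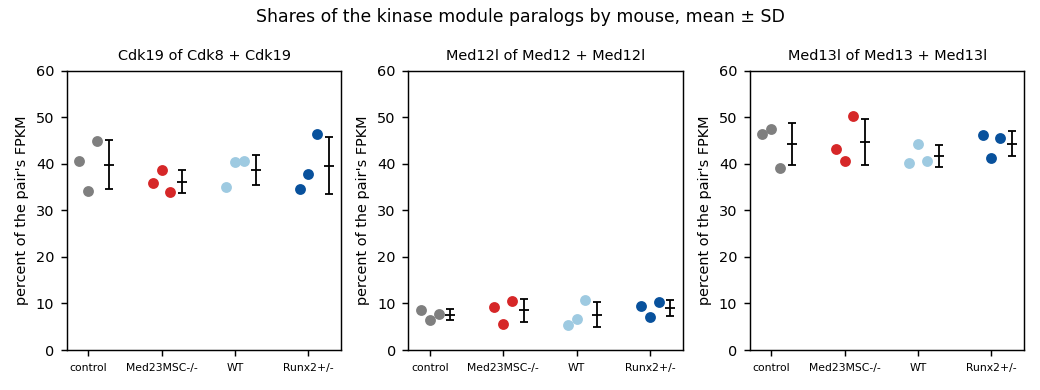
Percent of the summed FPKM of each paralog pair that came from Cdk19, Med12l or Med13l, with 1 point per mouse and the mean ± SD of each group of 3. Every group overlaps its comparison group, and group means lie between 36.2% and 39.8% for Cdk19, 7.6% and 8.99% for Med12l, and 41.6% and 44.7% for Med13l.

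In the Runx2+/- set, 0 of the 32 Mediator genes passed the threshold with limma, where 1.89% of all tested genes did. The fold changes lay between -0.25 and 0.25, with 18 positive and 14 negative values (56.2% positive, against 56.1% of all tested genes) and a median of 0.02, which was also that of all tested genes. Med10 was the only member lower at an unadjusted p under 0.05, against 8.32% of all genes, and 0 members were higher, against 7.09%. It was at 80.1, 79.1 and 84.9 FPKM in WT mice and at 72.3, 72.0 and 65.5 FPKM in Runx2+/- mice, against 88.1, 75.1 and 79.6 FPKM in controls and 80.4, 81.5 and 99.3 FPKM in Med23MSC-/- mice. The Runx2+/- mice all lay below the WT mice, and the difference of -0.22 (SE 0.08) had an adjusted p of 0.253. Med10 was also the 1 member of the set with all mutants below all WT mice (3.12% of the 32, against 10.4% of all genes), and Med12 and Med17 were the 2 with all mutants above (6.25%, against 10.7%). Med17 differed by 0.09 (SE 0.08). Module medians were 0.00 for head, -0.03 for middle, 0.15 for tail and 0.10 for kinase genes, and 4 of the 5 tail genes were positive, 5 of 5 after rescaling, with 0 past the test.

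The 2 sets were compared in 1 fit of all 12 mice, in which a positive value means that the signed difference between mutant and control was the higher in the Med23MSC-/- set. No adjusted p of the 32 members was under 0.05 in limma, and 0.153% of all genes passed, 8 higher and 12 lower, which became 144 and 20 without Med23MSC-/- mouse 2 and 0 and 2 without Med23MSC-/- mouse 1. At an unadjusted p under 0.05, 6 members were positive (18.8%, against 11.1% of all genes) and 0 were negative, against 4.17%. They were Med6 (0.53, SE 0.14, adjusted p = 0.11), Med21 (0.40, SE 0.13, adjusted p = 0.169), Med7, Med11, and Med4 and Med10, whose own differences were 0.12 and 0.10 in the Med23MSC-/- set and -0.25 and -0.22 in the Runx2+/- set. In all, 22 of the 32 were positive (68.8%, against 55.7% of all genes), and 12 after rescaling (37.5%, against 37% of all genes). By sign, the 9 middle genes were all positive and the 5 tail genes all negative, but 5 of the 9 middle genes were positive after rescaling and with muscle markers as a covariate, and of the 5 tail genes 0 and 4 were positive in these settings, so that the signs of both modules depended on the setting. For no Mediator gene did a difference between the sets pass the test.

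The summed FPKM of the 33 genes was 582 to 601 in controls, 673 to 723 in Med23MSC-/- mice, 632 to 680 in WT mice and 641 to 671 in Runx2+/- mice. Controls stood below all other groups in this sum, and Med23MSC-/- mice stood next to WT mice, the highest of which was at 680 FPKM. The head genes summed to 187 to 207 FPKM in controls and 210 to 239 FPKM in the other 9 mice, and the middle genes to 273 to 287 and 298 to 369 FPKM. The tail sums of the 4 groups overlapped, at 54.2 to 66.2, 56.3 to 61.0, 49.8 to 62.7 and 57.5 to 66.5 FPKM in the order above. No label ties mice of the 2 sets to a shared run, so values across the sets stand side by side without a test.

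In the Med23MSC-/- set, the differences of the Mediator genes moved with the length of their transcripts. Among 11 members in the shortest of 4 equal classes of genes by length (up to 1769 bases), which holds Med21, Med6 and Med30, 10 were higher in Med23MSC-/- mice with a median of 0.17. All genes of that class had a median of 0.11, and 66.8% of them were higher. Among 7 members in the longest class (from 4268 bases), which holds Med23, Med12 and Med14, 4 were higher with a median of 0.00, against 0.04 for all genes of that class. In the Runx2+/- set the medians of all genes had the opposite order, at -0.02, 0.01, 0.03 and 0.06 from the shortest to the longest class. The member medians there were -0.04, 0.06, 0.03 and 0.05, without a steady order. With the trend on length removed from each mouse, a step added after seeing the data, the member median of the Med23MSC-/- set was 0.03, 18 of 32 were positive, and Med21 differed by 0.32 (adjusted p = 0.0675).

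**Figure D5:**
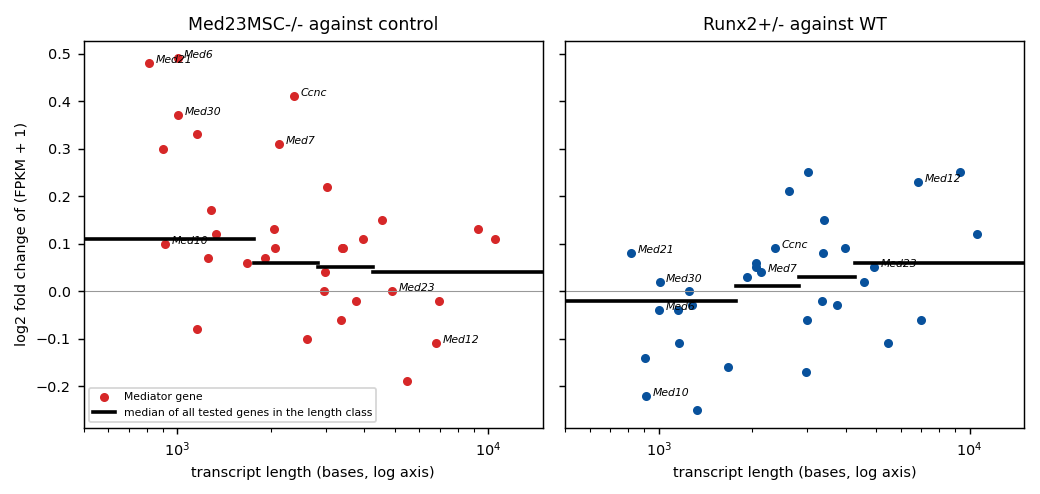
Log2 fold change of each tested Mediator gene against its transcript length (log axis), with the median of all tested genes in each of 4 length classes as a black bar. In the Med23MSC-/- set the bars fall from 0.11 to 0.04 and the short genes Med21 and Med6 lie highest, and in the Runx2+/- set the bars climb from -0.02 to 0.06.

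Markers of some cell types in the bone also moved with these groups. The 9 osteoblast markers summed to 25870 to 33618 FPKM in Med23MSC-/- mice and 49477 to 52281 FPKM in controls, with 9 of 9 lower and 1, Bglap (osteocalcin), past the threshold. The 6 cartilage markers summed to 32.3 to 46.5 FPKM in Med23MSC-/- mice and 58.2 to 109 FPKM in controls, with 5 of 6 lower and 1, Col2a1 (type II collagen), past the threshold (-0.86, SE 0.14, adjusted p = 0.0404). Both calls were lost when any of the 6 mice was left out. In Med23MSC-/- mice, 8 osteoblast markers (88.9%) and 5 cartilage markers (83.3%) were lower at an unadjusted limma p under 0.05. Of all genes, 5.63% were. Osteoblast markers of Runx2+/- mice summed to 30196 to 38983 FPKM against 39710 to 46323 FPKM in WT mice. Yet 6 of these 9 were higher, with a median of 0.08 and 0 past the threshold. Cartilage markers there summed to 55.9 to 101 FPKM against 45.7 to 66.6 FPKM, with 5 of 6 higher and 0 past the threshold. The 10 skeletal muscle markers summed to 599 to 4174 FPKM in Med23MSC-/- mice and 24.5 to 1378 FPKM in controls (10 of 10 higher, 0 past the threshold), and to 28.1 to 191 FPKM in Runx2+/- mice and 1904 to 5624 FPKM in WT mice (10 of 10 lower, 9 past it). Neural markers summed to 21.5 to 28.8 FPKM in Med23MSC-/- mice and 12.8 to 15.5 FPKM in controls (4 of 5 higher, 0 past the threshold), and erythroid markers to 6163 to 10027 and 11396 to 14987 FPKM (5 of 5 lower, 0 past it). Erythroid markers of Runx2+/- mice summed to 3330 to 13568 FPKM against 13139 to 14912 FPKM in WT mice. All 5 were lower at an unadjusted limma p under 0.05, where 8.32% of all genes were, and 0 passed the adjusted threshold. Osteoclast markers of Runx2+/- mice summed to 3284 to 4097 FPKM against 4999 to 6276 FPKM in WT mice. All 4 were lower with no overlap of groups, where 10.4% of all genes were, and 0 passed the threshold. In the Med23MSC-/- set the osteoclast sums overlapped, at 4068 to 5139 FPKM in mutants and 4427 to 7897 FPKM in controls. Neural sums overlapped in the Runx2+/- set, at 14.0 to 17.8 FPKM in mutants and 13.7 to 17.3 FPKM in WT mice. Every marker of these 6 lists was detected in at least 1 mouse. The 3 measured macrophage markers summed to 149 to 206 FPKM in Med23MSC-/- mice and 205 to 243 FPKM in controls. They summed to 163 to 182 FPKM in Runx2+/- mice and 184 to 190 FPKM in WT mice, with 0 past the threshold in either set. Of 5 epidermis markers, 3 stayed under 1 FPKM in every mouse, and the 1 that was tested did not pass. With the mean of the muscle markers as a covariate in 1 limma fit of all 12 mice, Med21 differed by 0.37 (adjusted p = 0.154) and Med6 by 0.51 (adjusted p = 0.124). The fit of all 12 mice without the covariate gave adjusted p-values of 0.0169 and 0.022. The part of the other cell types in the Mediator values was not tested.

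Genes that work beside Mediator were read from lists written from general knowledge. Of all tested genes, 61.3% were higher in Med23MSC-/- mice, and 44.4% after rescaling. Of 18 general initiation factors, 15 were higher (83.3%), 14 after rescaling, with a median of 0.23 and 0 past the threshold. At an unadjusted limma p under 0.05, 8 were higher (44.4%, against 15.7% of all genes). Gtf2a2, a subunit of TFIIA, had the smallest p (0.36, SE 0.07, adjusted p = 0.064). Of 12 measured RNA polymerase II genes, 10 were higher, 8 after rescaling, with a median of 0.18 and 0 past the threshold, led by the shared small subunit Polr2k (0.51, SE 0.11, adjusted p = 0.0698). Of 10 cohesin genes, 9 were higher, 6 after rescaling (median 0.12, Stag2 at 0.27, adjusted p = 0.152), and of 12 elongation genes 7 (58.3%), or 5 after rescaling (median 0.05, Mllt3 at 0.54, adjusted p = 0.109). At an unadjusted limma p under 0.05, 4 polymerase (33.3%), 2 cohesin (20%) and 1 elongation gene (8.33%) were higher, against 15.7% of all genes. Of the cohesin genes 1 was lower (10%, against 5.63%). With muscle markers as a covariate, the median was 0.12 for initiation genes, 0.04 for polymerase genes, 0.13 for cohesin genes and 0.07 for Mediator genes, so the order of the lists changed, and differences between lists were not tested. Of 14 DNA-binding partners of Mediator, 5 were higher and 9 lower, and Vdr, the vitamin D receptor that binds MED1, passed the threshold. At an unadjusted limma p under 0.05, 3 partners were lower (21.4%, against 5.63% of all genes) and 0 were higher. Vdr was at 39.7, 35.8 and 33.2 FPKM in controls and at 24.5, 25.1 and 25.3 FPKM in Med23MSC-/- mice, and fell by 0.52 on the log2 scale (SE 0.09, adjusted p = 0.043). Its call was lost when any of the 6 mice was left out (adjusted p between 0.0886 and 0.168), and held in 4 of 19 alternative settings, with fold changes between -0.65 and -0.45. In the Runx2+/- set, 0 genes of these 5 lists passed the threshold with limma, and the list medians lay between -0.02 and 0.07. At an unadjusted p under 0.05, 1 initiation gene was higher (5.56%, against 7.09% of all genes) and 2 were lower (11.1%, against 8.32%). Of the DNA-binding partners, 1 was lower (7.14%), and the other lists had 0. The smallest p of each list there belonged to Polr2m (0.14, adjusted p = 0.565), Mllt3 (-0.31, adjusted p = 0.343), Mau2 (0.18, adjusted p = 0.361), Gtf2a1 (-0.24, adjusted p = 0.282) and Pparg (-0.63, adjusted p = 0.128).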

How the data were processed

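Calvaria of 12 newborn mice were sequenced as total RNA with the Illumina TruSeq kit, and groups and replicate numbers were taken from the labels. The authors deposited FPKM values per RefSeq transcript, and the submitters' processing notes name Bowtie 0.12.8 and mm10. The program that estimated the values is not given in the sources used here, nor are batches. The unit FPKM was inferred from the values. They summed to 891329 to 1068933 per mouse, a total that does not by itself identify the unit. The estimates of depth and of fragments per gene rest on this inference. Depth was estimated from the smallest values as roughly 7800000 to 11700000 fragments per mouse, and it limits low genes.

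Transcripts were matched to symbols by the NCBI table (29835) or GENCODE M21 (180), and 396 stayed unmatched, Polr2a and the macrophage marker Cd68 among the symbols without a match. FPKM was summed per gene (23715 genes). Those that reached 1 FPKM in 3 or more mice (13059) were tested on log2(FPKM + 1) with limma 3.58.1 in R 4.3.3 (trend, no covariates), separately for each set of 6 mice, with an interaction contrast over 12 mice. The fits were tested on simulated data. Shares of paralogs were compared with scipy 1.17.1. Tables were made in Python 3.11.15 (pandas 2.3.3, numpy 2.4.6), and figures in matplotlib 3.10.9. Promoter windows and loci are RefSeq, GRCm38.p6.

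The Mediator genes and the other lists were chosen with earlier results of these data known. By rule, Med23, Med24 and Med16 were given by mouse, as were members past an adjusted p of 0.05 or with non-overlapping groups and an unadjusted p under 0.05. Med12 was added after its values were seen. Of the other lists, genes past the threshold or with the smallest p were named. Alternatives are given in the closing section.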

Additional observations from a re-analysis of the deposited data

How the results depend on the processing

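The count of Mediator genes past the adjusted threshold in the Med23MSC-/- set, 1 (Med21), was 1 with a pseudocount of 0.1, 3 with all 12 mice in 1 fit (Med21, Med6 and Med7), 2 with at least 2 FPKM in at least 6 mice (Med21 and Med6) and 6 at an unadjusted p under 0.05. It was 0 with the highest transcript alone, no filter on low values, no mean-variance trend, an ordinary two-sample test, muscle markers or sex as a covariate, values rescaled to the same sum, the length trend removed, or the 3 libraries with Xist left out, and 0 to 0 (lowest to highest) when each mouse was left out. In the Runx2+/- set and in the comparison of the sets the count was 0 in every adjusted alternative run, and 1 and 6 at an unadjusted p under 0.05. The fits with muscle markers, with sex or without the Xist libraries took both sets together. Their counterpart is the fit of all 12 mice, not the separate fits. The length and Xist alternatives were chosen after seeing the data. The cause of these changes was not tested.

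The replicate number as a block gave 0 Mediator genes past the threshold in the Med23MSC-/- set (Med21 0.48, adjusted p = 0.0533) and 0 in the Runx2+/- set. Deviations of equal-numbered mice correlated by 0.180, 0.259 and 0.0527 in the first set, where each mouse correlated best with its own number, and by 0.00482, -0.0474 and -0.0836 in the second. The main fits had no block, and whether equal numbers pair the mice of the first set was not settled.

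The median over the Mediator genes in the Med23MSC-/- set, 0.10, was 0.03 with the length trend removed, 0.07 with muscle markers or with sex as a covariate, 0.05 without the Xist libraries, 0.00 after rescaling and 0.08 to 0.12 without each mouse in turn. In the Runx2+/- set, 0.02 became 0.06 with muscle markers, 0.05 after rescaling and 0.00 to 0.06 without each mouse. Of 1933 alternative values of single Mediator genes, 16 lost the call (all Med21), 3 gained it (Med6 in 2 and Med7 in 1), and 142 that were never past the threshold had the opposite sign, 4 of them with both values at least 0.1 from 0. Med23 in its own set lay between -0.16 and 0.08, and in the Runx2+/- set between -0.01 and 0.36, never past the threshold.

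Over all genes, 132 were called higher and 73 lower in the Med23MSC-/- set. The numbers were 527 and 190 with all mice in 1 fit, 41 and 65 after rescaling, and 74 and 94 with the length trend removed. They were 17 and 29 with muscle markers, and 181 and 92 with the replicate block. Without control mice 1 to 3 in turn they were 22 and 13, 0 and 1, and 2 and 1. Without Med23MSC-/- mice 1 to 3 in turn they were 0 and 0, 2 and 1, and 2 and 7. Few calls of any gene thus remained when 1 mouse was left out. The highest transcript alone gave 30 and 27, no filter 23 and 12, no trend 50 and 39, sex as a covariate 74 and 64, and the ordinary test 0 and 0. In the Runx2+/- set, 52 and 195 became 21 and 69 with the replicate block and 39 and 56 with all mice in 1 fit. Other fits of both sets together gave 2 and 0 with muscle markers and 5 and 9 without the Xist libraries. In the comparison of the sets, 8 and 12 became 119 and 17 with the replicate block, 90 and 19 without control mouse 1, 144 and 20 without Med23MSC-/- mouse 2, 51 and 25 without WT mouse 2, 0 and 0 with muscle markers, and 0 and 2 without any of control mice 2 and 3, Med23MSC-/- mouse 1, Runx2+/- mice 1 and 3 and WT mouse 3. Depth limits the low genes Med12l, Med18 and Med26 most.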
